A study of Mus musculus with 8 samples.

Results

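The 7 genes described here encode cell surface proteins and were followed in mouse MA9 leukemia cells with and without Gata2: the receptors Tgfbr1, Met, Smo, Cd72 and Il11ra1 and the tetraspanins Tspan33 and Tspan12. They were chosen by name, and the 7 rows were found by Ensembl identifier among 49585 rows of the count table. All cells were labelled MA9 leukemia, cell line AML, so whatever MA9 stands for is shared by both groups. The controls were Gata2 f/f, a genotype with both alleles flanked by recombination sites, and the other cells were Gata2 KO, also written Gata2 -/-, with 4 libraries each. The cells came from bone marrow and were grown in IMDM with 15% serum, IL-3, IL-6 at 10 ng/mL and SCF at 20 ng/mL. The labels give neither the age of the animals nor the way Gata2 was removed, and they do not say whether the replicates were separate cultures or animals, so p-values measure the spread between these libraries only.

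Surface receptors set which outside signals a leukemia cell can read. Tgfbr1 encodes the type I receptor kinase that signals for TGF-beta through Smad proteins, and TGF-beta is known for holding early blood cells in quiescence. Met is the receptor tyrosine kinase for hepatocyte growth factor, Il11ra1 the ligand-binding chain for interleukin 11 that signals together with gp130, and Smo the signal transducer of the Hedgehog pathway. Cd72 is a lectin-like inhibitory receptor of B cells. Tetraspanins are membrane proteins with 4 membrane-spanning stretches that organise other receptors: Tspan33 is one of those that accompany the protease ADAM10, and Tspan12 serves the norrin receptor Fzd4.

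Total counts ran from 1610369 to 6237748 per library. The libraries numbered 4 were the deepest of each genotype (5480086 in Gata2 f/f and 6237748 in Gata2 KO), followed by Gata2 KO replicate 3 (4129492). Most names in the table cannot be read as genes: of 498 genes of families that every cell uses, 327 (65.7%) lay under 1 CPM (counts scaled to a common library total) in the pooled libraries. The 7 genes lie in stretches of chromosomes 4 and 6 where 11 of 11 and 5 of 5 such genes reached 20 CPM, as did 5 of 5 in a stretch of chromosome 15. These 3 checked segments were set with the counts in view, and they hold 977 rows, of which 390 are protein-coding. The Gata2 row itself held 0, 0, 1 and 1 counts in Gata2 f/f and 2, 0, 0 and 0 in Gata2 KO. It lies outside the segments and so does not check the genotype labels. All CPM values of the 7 genes are scaled by TMM, a method that corrects the library total for differences in composition, and all coordinates are GRCm38.

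Of the 7 genes, 3 were counted at levels that could be tested and 4 held 21 counts or fewer over the 8 libraries. Tgfbr1 was the most abundant, with 11633 counts, followed by Met with 3153 and Il11ra1 with 416. Cd72 had 21 counts, Tspan33 had 11, Tspan12 had 4 and Smo had 2. Per kilobase of annotated exon the mean level over the 8 libraries was 72.3 CPM for Tgfbr1, 16.3 for Met and 3.57 for Il11ra1, so the order of the 3 did not depend on gene length. Tgfbr1 ranked 77 of the 390 protein-coding genes of the segments by this measure, Met ranked 158 and Il11ra1 ranked 195. In edgeR's quasi-likelihood test with genotype alone in the model, 0 of the 3 tested genes passed an adjusted p of 0.05 (0 also at an unadjusted p of 0.05), against 12.5% of the 6580 rows tested and 12.3% of the 253 tested rows of the segments. DESeq2 called 0 of them as well, against 946 rows over the whole table. With the replicate number as a block, Tgfbr1 (higher in Gata2 KO) and Met (lower) passed, 2 of 3 against 35.5% of all rows tested and 45.5% of those in the segments. Calls in the direction of Tgfbr1 made up 18.8% of all rows tested and calls in the direction of Met 16.7%. The genotypes overlapped in CPM in all 3 tested genes, and they did not in 19.1% of the rows tested. With 3 genes, nothing can be read from this. They overlapped in the 4 untested genes as well, which are not among the rows behind that share.

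**Figure D1:**
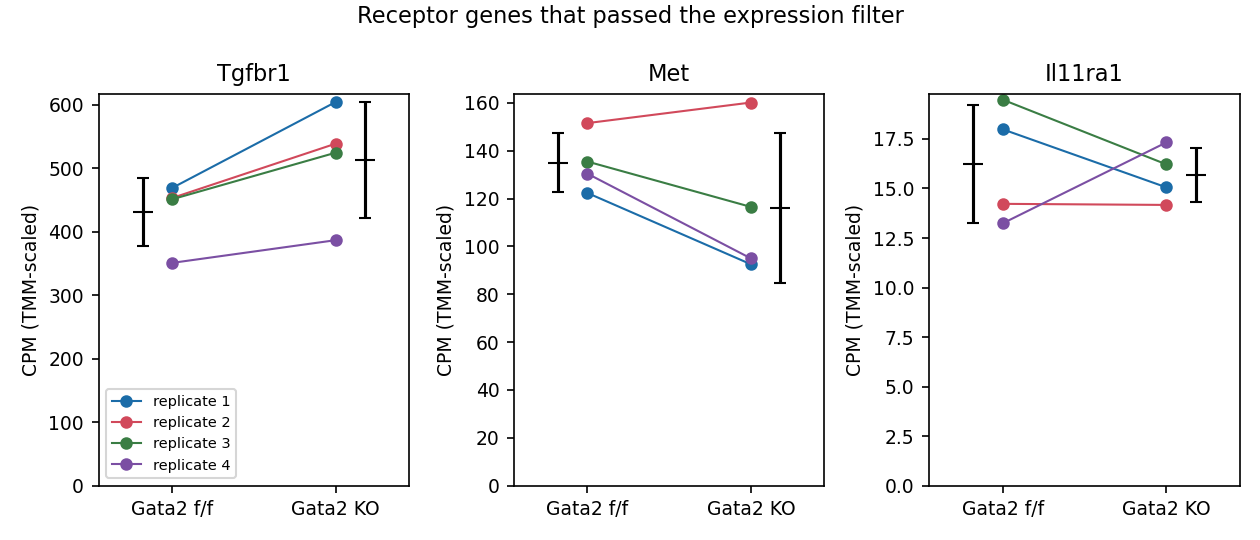
TMM-scaled CPM of Tgfbr1, Met and Il11ra1 in each of the 8 libraries (points), with lines joining libraries of the same replicate number and bars giving the mean and SD of each genotype (n = 4). All 4 lines of Tgfbr1 rise toward Gata2 KO, 3 of 4 lines of Met fall, and those of Il11ra1 cross.

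Tgfbr1 (ENSMUSG00000007613.15, plus strand, chromosome 4 from 47353222 to 47414931) stood at 469, 453, 451 and 351 CPM in Gata2 f/f replicates 1 to 4. In Gata2 KO replicates 1 to 4 it stood at 605, 539, 525 and 387 CPM. The libraries numbered 4 were the lowest of each genotype, and the genotypes overlapped only because Gata2 KO replicate 4 lay below the other 3 controls. The 4 controls averaged 431 ± 54.0 CPM (SD) and the 4 Gata2 KO libraries 514 ± 91.5 CPM. The log2 fold change was 0.25 ± 0.15 (SE, 95% interval -0.071 to 0.58, adjusted p = 0.324, edgeR). Within the numbered pairs Tgfbr1 was higher in Gata2 KO in 4 of 4, by 0.37, 0.25, 0.22 and 0.14 on the log2 CPM scale. Of all rows tested, 24.2% were likewise higher in 4 of 4 pairs. With the replicate block the log2 fold change was 0.24 ± 0.062 (95% interval 0.11 to 0.37, adjusted p = 0.00578, edgeR).

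Exact permutation tests on log2 CPM gave Tgfbr1 a two-sided p of 0.257 over 70 groupings of the libraries and 0.125 when genotypes were swapped within pairs, the smallest that 16 swaps allow. Without both libraries numbered 4, Tgfbr1 passed in edgeR also with genotype alone, at a log2 fold change of 0.29 ± 0.089 (adjusted p = 0.0258), where 22.1% of 6513 rows passed and 13.7% passed as higher in Gata2 KO. With genotype alone the log2 fold change was 0.16 on removal of Gata2 KO replicate 1 or of the control numbered 4, and 0.37 on removal of Gata2 KO replicate 4. None of these passed (adjusted p = 0.578, 0.479 and 0.0756, edgeR). Tgfbr1 passed with the block whichever numbered pair was left out (adjusted p from 0.00424 without the pair numbered 1 to 0.0349 without the pair numbered 2, edgeR).

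The stretch before the Tgfbr1 start is shown with that of Smo, because these genes were the most and the least counted of the 7. Each line gives the 250 bases before the RefSeq start in GRCm38.p6, 5′ to 3′ on the plus strand, with CpG dinucleotides in capitals. The Tgfbr1 stretch is chr4:47352972-47353221 and holds 29 CpG, and the Smo stretch is chr6:29735247-29735496 and holds 15.
Tgfbr1: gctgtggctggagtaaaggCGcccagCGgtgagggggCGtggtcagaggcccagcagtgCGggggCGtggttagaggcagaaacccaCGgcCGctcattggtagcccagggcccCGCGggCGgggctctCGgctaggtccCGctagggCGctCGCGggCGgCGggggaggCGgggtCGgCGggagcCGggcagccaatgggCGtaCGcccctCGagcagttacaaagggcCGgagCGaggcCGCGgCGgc
Smo: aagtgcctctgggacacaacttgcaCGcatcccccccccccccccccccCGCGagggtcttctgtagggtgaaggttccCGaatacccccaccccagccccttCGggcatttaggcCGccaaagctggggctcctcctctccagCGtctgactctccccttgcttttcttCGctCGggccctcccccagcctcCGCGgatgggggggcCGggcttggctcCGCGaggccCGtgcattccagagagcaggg

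RefSeq gives 9 start windows for the 7 genes, each of 300 bases with 250 before and 50 after a start. The CpG count was 34 in the first Tgfbr1 window and in the Met window, 21 in Tspan33 and 17 in Smo. It was 7 in Cd72, in Tspan12 and in the first Il11ra1 window, which equals the median of 32851 windows. The second windows of Tgfbr1 and Il11ra1 held 3 each. Smo and Tspan33 had more CpG than either Il11ra1 window and far fewer counts. Any link between CpG and counts was not tested. The GATA motif, read as GATA preceded by A or T and followed by A or G, was searched on both strands. It occurred in 0 of the 9 windows and in 29.8% of all windows. With 9 windows from 7 genes, no lack of the motif can be read from this. The windows were not matched for base content (75.7% G or C in Met), and sequence farther from the starts was not searched.

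Met (ENSMUSG00000009376.15, plus strand, chromosome 6 from 17463800 to 17573980) stood at 122, 152, 135 and 130 CPM in Gata2 f/f replicates 1 to 4. In Gata2 KO replicates 1 to 4 it stood at 92.5, 160, 116 and 95 CPM. Gata2 KO replicate 2 was the highest of all 8 libraries and the other 3 Gata2 KO libraries were the lowest. The controls averaged 135 ± 12.3 CPM (SD, 4 libraries) and the Gata2 KO libraries 116 ± 31.3 CPM. The log2 fold change was -0.22 ± 0.17 (SE, 95% interval -0.59 to 0.15, adjusted p = 0.471, edgeR). Within pairs the differences in log2 CPM were -0.40, 0.079, -0.22 and -0.45, so Met was lower in Gata2 KO in 3 of 4 pairs.

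With the replicate block the log2 fold change of Met was -0.26 ± 0.089 (95% interval -0.45 to -0.071, adjusted p = 0.0308, edgeR). This call was lost without the pair numbered 3 (adjusted p = 0.0751) or the pair numbered 4 (0.301) and was kept without the pair numbered 1 (0.0171) or 2 (0.00899). The log2 fold change without the pair numbered 4 was -0.16. With genotype alone, leaving out Gata2 KO replicate 2 moved it to -0.41 ± 0.13, which did not pass (adjusted p = 0.0983, edgeR). Leaving out Gata2 KO replicate 1 or replicate 4 moved it the other way, to -0.13 in either case (adjusted p = 0.705 and 0.678, edgeR). Exact two-sided permutation tests on log2 CPM gave Met p = 0.257 over 70 groupings and 0.25 over 16 swaps within pairs.

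Tgfbr1 and Met, both receptor kinases, can also be set against each other within a library, which takes out library scaling. There were 3.84, 2.99, 3.33 and 2.69 Tgfbr1 counts per Met count in Gata2 f/f replicates 1 to 4. In Gata2 KO replicates 1 to 4 there were 6.53, 3.37, 4.50 and 4.07. The ratio was higher in Gata2 KO in 4 of 4 pairs, and the genotypes overlapped, since Gata2 KO replicate 2 lay below Gata2 f/f replicate 1. The mean was 3.21 ± 0.491 in Gata2 f/f and 4.62 ± 1.36 in Gata2 KO (SD, n = 4 each). The ratio was formed after both genes had been seen and is given without a test.

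Il11ra1 (ENSMUSG00000073889.10, plus strand, chromosome 4 from 41699989 to 41769474) stood at 18, 14.2, 19.5 and 13.2 CPM in Gata2 f/f replicates 1 to 4. In Gata2 KO replicates 1 to 4 it stood at 15.1, 14.2, 16.2 and 17.3 CPM. The Gata2 KO libraries all lay within the range of the controls. The averages were 16.2 ± 2.98 CPM for the 4 controls and 15.7 ± 1.37 CPM for the 4 Gata2 KO libraries (SD). The log2 fold change was -0.020 ± 0.19 (SE, 95% interval -0.44 to 0.40, adjusted p = 0.971, edgeR). With the block it was 0.033 ± 0.17 (95% interval -0.33 to 0.40, adjusted p = 0.902, edgeR). No difference was detected, and the interval with genotype alone leaves room for a change from -0.44 to 0.40 on the log2 scale.

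The Il11ra1 value is less certain than the other two. The annotated span of Il11ra1 overlaps other genes, among them Rpp25l, Dctn3 and Galt, the last of which is on the same strand, and the library kit does not mark strand. Both RefSeq starts of Il11ra1 lie beyond these 3 genes. The pooled level of Dctn3 was 381 CPM, far above that of Il11ra1. Il11ra1 also has a close copy, Il11ra2, which held 0 counts in all 8 libraries. How reads shared by overlapping genes or copies were counted is not given in the sources used here.

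**Figure D2:**
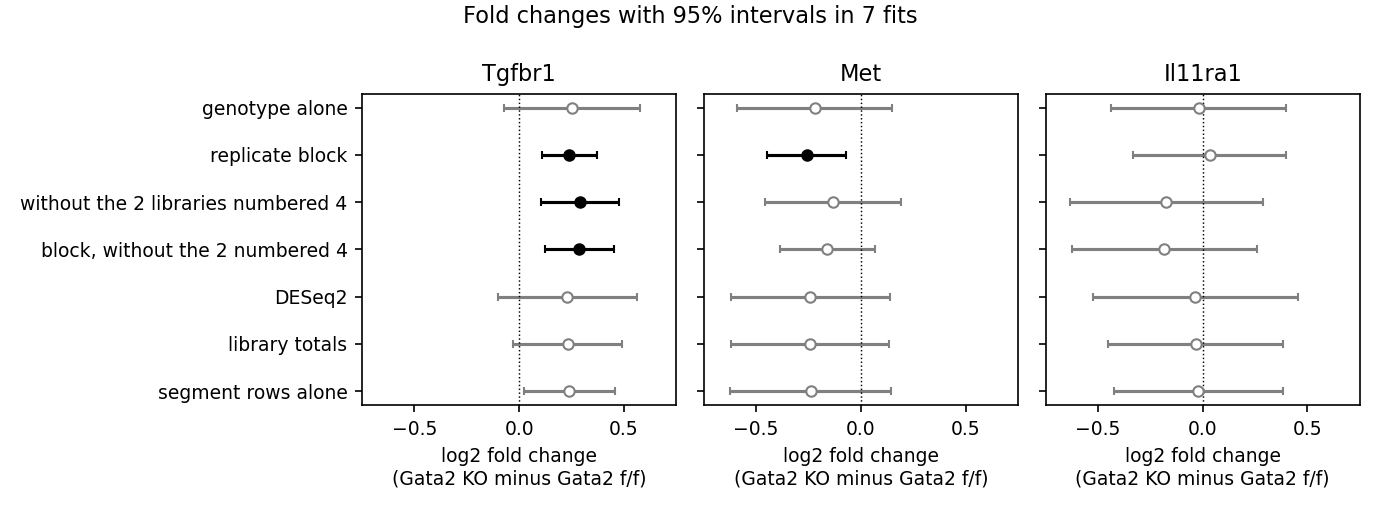
Log2 fold change (Gata2 KO minus Gata2 f/f) of Tgfbr1, Met and Il11ra1 with 95% intervals in 7 fits: edgeR except where DESeq2 is named, with filled points for an adjusted p under 0.05. Tgfbr1 lies above 0 in all 7 and is filled in 3, Met lies below 0 in all 7 and is filled with the replicate block alone, and Il11ra1 straddles 0.

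The 4 remaining genes lay near the limit of detection. A count of 0 in one library allows up to 3 counts, or 0.456 to 1.86 CPM, and over the 4 libraries of a genotype 3 counts correspond to 0.258 CPM for the controls and 0.205 CPM for Gata2 KO. These floors and the exact 95% Poisson intervals below cover counting error only. In edgeR with no filter on low counts, 0 of the 4 passed (adjusted p from 0.355 for Tspan12 to 0.950 for Smo), and with the block 0 passed either (0.932 to 0.996). At an unadjusted p under 0.05 only Tspan12 passed, and only without the block. Among all rows, the same unfiltered fits called 880 without the block and 2149 with it. With 4 genes of so few counts, nothing can be read from 0 passing.

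Smo (ENSMUSG00000001761.7, plus strand, chromosome 6 from 29735503 to 29761365) had 1 count in Gata2 f/f replicate 4, 1 in Gata2 KO replicate 4 and 0 in the other 6 libraries. The pooled level was 0.0861 CPM (0.00218 to 0.480) among the controls and 0.0684 CPM (0.00173 to 0.381) among Gata2 KO libraries. Both lie under the floor, so no fold is given. Its neighbours on either side among the genes of ubiquitous families were Atp6v1f at 716 CPM and Ube2h at 199.7 CPM in the pooled libraries. The segments were set by such genes with the counts in view, and Ube2h ends this segment. These levels are therefore no separate check of the Smo row.

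Cd72 (ENSMUSG00000028459.11, minus strand, chromosome 4 from 43446462 to 43454628) had 2, 1, 2 and 1 counts in Gata2 f/f and 0, 0, 8 and 7 in Gata2 KO, replicates 1 to 4. Gata2 KO replicates 3 and 4 were the highest and replicates 1 and 2 the lowest, so the genotypes overlapped. The pooled level was 0.517 CPM (0.190 to 1.12) among the controls and 1.03 CPM (0.574 to 1.69) among Gata2 KO libraries, a ratio of 1.98 (0.728 to 6.24). The exact permutation p over 70 groupings was 0.83 (two-sided, log2 CPM). From 43446462 to 43448064 Cd72 overlaps Tesk1 on the other strand, counted at 36.1 CPM in the pooled libraries, and reads there cannot be told apart. Pax5, the B cell transcription factor and the only gene of the B cell list in the segments, had 3 counts over the 8 libraries.

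Tspan33 (ENSMUSG00000001763.14, plus strand, chromosome 6 from 29694222 to 29718559) had 0, 0, 2 and 0 counts in Gata2 f/f and 0, 1, 5 and 3 in Gata2 KO, replicates 1 to 4. The pooled level was 0.172 CPM (0.0209 to 0.622) against 0.615 CPM (0.281 to 1.17), a ratio of 3.57 (0.739 to 34.0), with an exact two-sided permutation p of 0.371. The 3 libraries with the most Tspan33 in CPM were Gata2 KO replicate 3, Gata2 f/f replicate 3 and Gata2 KO replicate 2. Tspan12 (ENSMUSG00000029669.14, minus strand, chromosome 6 from 21771395 to 21852515) was counted in the controls alone, with 0, 2, 2 and 0 counts in Gata2 f/f and 0 in all 4 Gata2 KO libraries. Its pooled level was 0.345 CPM (0.0939 to 0.882) in Gata2 f/f. The 0 counts of Gata2 KO allow up to 0.205 CPM, which lies inside that interval, so no fold is given. The control level rests on 4 counts in 2 libraries, and the exact two-sided permutation p was 0.429. Neither tetraspanin differed detectably at this depth.

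**Figure D3:**
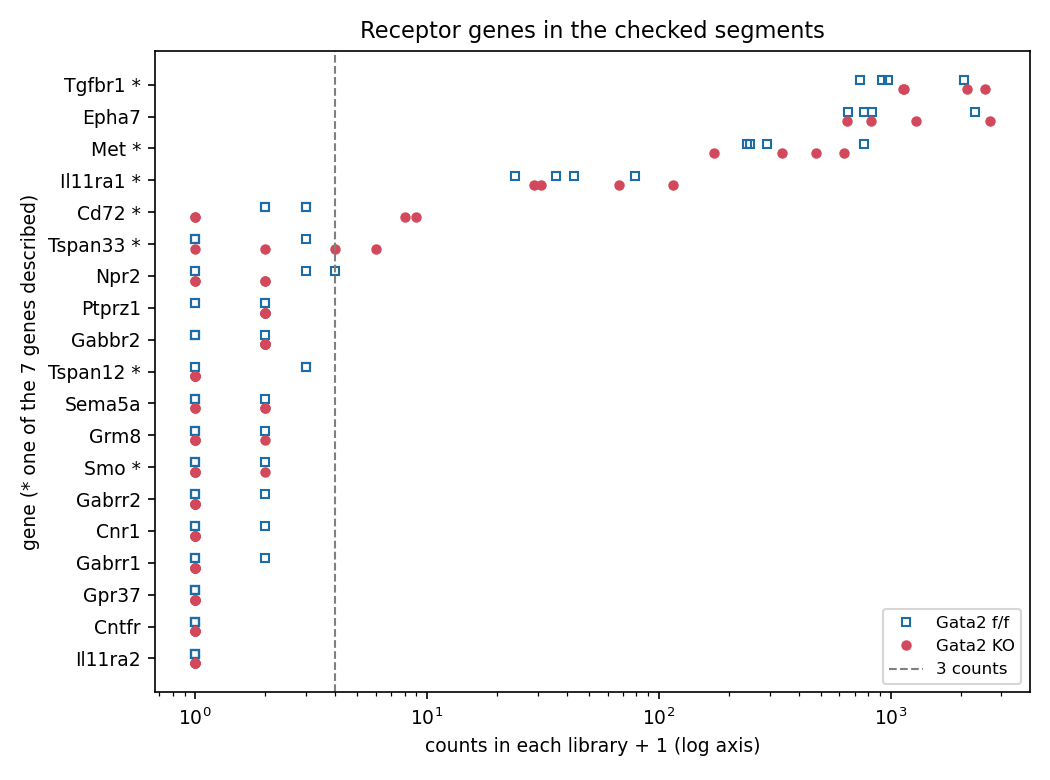
Counts in each library plus 1, on a log axis, for 19 receptor genes of the checked segments (squares, Gata2 f/f; circles, Gata2 KO), with the 7 genes described marked by an asterisk and a dashed line at 3 counts. Tgfbr1, Epha7, Met and Il11ra1 lie far to the right of the line in all libraries, and the other 15 genes had at most 21 counts in all.

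A list of 20 receptor and receptor-like genes was drawn up, of which 19, the 7 included, lie in the checked segments. Of these 4 could be tested: Tgfbr1, Met, Il11ra1 and Epha7. Epha7, an ephrin receptor kinase, averaged 394 ± 31.0 CPM (SD) over the 4 controls and 364 ± 41.3 CPM over the 4 Gata2 KO libraries. It did not pass in edgeR, at a log2 fold change of -0.12 ± 0.11 (adjusted p = 0.586 with genotype alone, 0.218 with the block). The other 15 had at most 21 counts each over the 8 libraries, and 3 of them, Il11ra2, Cntfr (the receptor chain for ciliary neurotrophic factor) and Gpr37, had 0. The median log2 fold change of the 4 tested receptors was -0.068, and that of all rows tested was -0.011.

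Genes of 7 pathway lists lie almost all outside the segments, so the rows are counted but not named here. Of all rows tested, 8.97% were called higher and 3.53% lower in Gata2 KO with genotype alone, and 18.8% higher and 16.7% lower with the block. The counts below describe rows under these names and do not measure the pathways. In the TGF-beta list 8 of 33 rows were tested: 2 were called higher and 0 lower, and the block called 3 higher, Tgfbr1 among them. In the HGF and Met list 6 of 18 were tested and 0 passed, and with the block 1 was higher and 1, Met, lower. In the Hedgehog list 7 of 22 were tested and 0 passed, with 1 lower under the block. In the IL-6 and IL-11 family 8 of 19 were tested and 1 was higher, or 3 with the block. Of 31 tetraspanins 7 were tested and 0 passed, with 1 higher and 2 lower under the block. Of 15 tetraspanin partners 4 were tested and 1 was lower with and without the block, and of 11 names of CD72 signalling 4 were tested and 1 was higher with and without it. In each of the 3 lists where 0 passed in edgeR with genotype alone, 1 row had an unadjusted p under 0.05 and DESeq2 called 0.

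Marker genes of cell types were read only inside the segments. The myeloid markers there are Irf5 and Tfec, transcription factors of macrophages, and both were higher in Gata2 KO (log2 fold changes 2.34 and 0.57, adjusted p 6.5e-06 and 0.0231, edgeR), with a summed level of 920 to 1299 CPM in the controls against 1694 to 2190 CPM without Gata2. Of the 8 stromal, epithelial and endothelial markers there, Cav2, a caveola protein, was higher in Gata2 KO (log2 fold change 1.13, adjusted p = 0.0109, edgeR) and Reck did not pass. Cav1 and Tpm2 had 1 count each, Wnt2 had 0, and Col15a1, Cftr and Ptprz1 had 104, 19 and 6. The summed level was 41.8 to 59.1 CPM in the controls against 63.4 to 118 CPM without Gata2. Tox, the only T and NK cell marker in the segments, lay between 4.64 and 8.74 CPM in the controls and between 5.38 and 15.1 CPM without Gata2, and did not pass with genotype alone (log2 fold change 0.97, adjusted p = 0.0746, edgeR). With the block Tox passed as higher in Gata2 KO (1.03, adjusted p = 0.00651, edgeR). Defining markers such as Mpo lie outside the segments, so the labelled cell type was not checked further. The part of these markers in the Tgfbr1 and Met values was not tested, and in bulk RNA fewer cells of a type and less RNA per cell cannot be told apart.

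The genes most like each tested receptor were sought among the other 213 tested protein-coding genes of the segments. The measure was Pearson's r of log2 CPM over the 8 libraries. Within a library all genes share its depth and scaling, and the position of the pair numbered 4 enters every correlation. Tgfbr1 was closest to Ube2j1, a ubiquitin-conjugating enzyme of the endoplasmic reticulum (r = 0.994, Spearman's rho = 0.952), and to Dcaf12, a ubiquitin ligase adaptor (r = 0.979, rho = 0.976). Ube2j1 averaged 596 ± 68.1 CPM (SD) over the 4 controls and 692 ± 107 CPM over the 4 Gata2 KO libraries, with an adjusted p of 0.368 in edgeR and 0.0115 with the block. Met was closest to Manea (r = 0.800, rho = 0.786) and Pigo (r = 0.733, rho = 0.714), enzymes of glycan processing and of GPI anchor synthesis. Il11ra1 was closest to Galt (r = 0.706, rho = 0.619), which lies inside its annotated span, and to Ripk2 (r = 0.685, rho = 0.714), a kinase of innate immune signalling. These values describe 8 libraries and carry no test.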

How the data were processed

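The values are raw counts by Ensembl identifier, as the authors deposited them, from 8 libraries of poly(A) RNA read as 65 bp pairs, per the labels' protocols. The submitters' processing notes name mm10, kallisto, HTSeq and DESeq2. Which of these made the count table, with what version and annotation, was not given in the sources used here. Symbols came from a gene name table (49326 of 49585 rows) and coordinates from GENCODE M21.

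Counts were tested in edgeR 4.0.16 (R 4.3.3): TMM scaling, the default expression filter (minimum count 10), the quasi-likelihood test of genotype as sole term, and Benjamini-Hochberg adjustment over all 6580 rows tested. Standard errors were taken as the log2 fold change divided by the square root of the F statistic. Log2 CPM used a prior count of 2. Alternatives were a replicate block, DESeq2 1.42.0, other scalings, no filter, segment rows alone and left-out libraries.

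All 7 genes are named, with the tested list members inside the segments and the 2 rows most like each tested gene. The genes, lists and segments were chosen with earlier results of these data known. The families of ubiquitous genes were set after seeing the counts, leaving out tissue-restricted relatives.

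Both genotypes have titles numbered 1 to 4. After each genotype's mean log2 CPM was subtracted, libraries of the same number correlated at 0.333, 0.213, 0.243 and 0.804. Between different numbers the values ran from -0.474 to 0.182, and those of number 4 with another number from -0.474 to -0.333. The deviations within a genotype sum to 0, so a high value for number 4 itself forces lower ones between it and the others. The values of the same number all exceed 0.1, and the numbers were taken as pairs for the block, although no label says what they share. Some libraries of different numbers also exceed 0.1, such as Gata2 f/f replicate 3 with Gata2 KO replicate 1 (0.155). The cut therefore does not establish the pairs, and number 4 stood furthest apart, at 0.804. Libraries of one genotype differed by more than sampling noise (chi-square over degrees of freedom 2.27 to 24.2), the largest values involving number 4. Number 4 was also the deepest library of each genotype, and this measure grows with depth. The part of depth in these values was not tested. Depth limits single libraries to about 0.456 to 1.86 CPM for a count of 0.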

Additional observations from a re-analysis of the deposited data

Results flagged for a closer look

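In Gata2 f/f, the Tgfbr1 level of replicate 4, at 351 CPM, stood far below the other 3 libraries at 451 to 469 CPM. Its gap to the nearest library made up 0.849 of the whole range, above Dixon's 95% critical value for 4 samples. The 3 tested genes gave 6 groups, and chance marks about 1 group in 20. Gata2 KO replicate 4 was also the lowest of its genotype, at 387 CPM.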

How the results depend on the processing

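Leaving out 1 library at a time, with genotype alone, kept the direction of Tgfbr1 (log2 fold change 0.16 to 0.37, adjusted p 0.0756 to 0.578) and of Met (-0.41 to -0.13, adjusted p 0.0983 to 0.705), and neither was called. For Il11ra1 the range was -0.13 to 0.078. The direction of Il11ra1 also turned with the replicate block, at 0.033, with the block and no filter, at 0.053, and with the block without the pair numbered 1 (0.10), 2 (0.038) or 3 (0.13).

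Tgfbr1 was called in edgeR with the replicate block (0.24), with the block and no filter (0.26), with the block without the pair numbered 1 (0.20), 2 (0.24), 3 (0.25) or 4 (0.29), and without both libraries numbered 4 (0.29). Met was called with the block (-0.26) and with the block without the pair numbered 1 (-0.24) or 2 (-0.36). The alternatives that leave out the pair numbered 1, 2 or 3 with the block, and the block with no filter, were chosen after seeing the data. DESeq2, DESeq2's size factors in edgeR, library totals, no filter and the segment rows alone called 0 of the 3 genes without the block. Over the whole table the first 4 of these called 946, 820, 840 and 880 rows. The causes were not tested.

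Of the 7 genes, 0 were called with genotype alone and 0 when any 1 library was left out. With the block 2 were called, and 2 without the pair numbered 1 or 2, but 1 without the pair numbered 3 or 4, 1 with no filter. With genotype alone and the libraries numbered 4 removed, 1 was called. The counts for the 19 receptors of the segments were the same as these. Over the 7 pathway lists 5 rows were called, and 2 to 7 when 1 library was left out. With the block 14 were called, 13 with no filter, and 17, 12, 8 and 13 without the pair numbered 1, 2, 3 or 4. Without the block and both libraries numbered 4 there were 11. Of all rows tested 822 were called, and 548 to 1103 when 1 library was left out. With the block 2339 were called, 2149 with no filter, and 2564, 1992, 1797 and 1727 without the pair numbered 1, 2, 3 or 4. Without both libraries numbered 4 and without the block 1437 were called. The fit on segment rows alone gives no value for these last 2 totals.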

Other observations

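Penk, the gene of the opioid precursor proenkephalin and the only ligand gene of 9 in the checked segments that could be tested, averaged 141 ± 49.1 CPM (SD) over the 4 controls and 216 ± 62.7 CPM over the 4 Gata2 KO libraries. Its log2 fold change was 0.62 ± 0.26 (SE, adjusted p = 0.155, edgeR, and 5.41e-06 with the replicate block). Of the other 8 ligand genes, the chemokine genes Ccl19, Ccl21a, Ccl21b and Ccl27b and the gene Wnt2 had 0 counts in all 8 libraries.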
